A study of Mus musculus with 10 samples.

Results

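The genes of the circadian clock described here are Clock, Arntl, Per2, Per3, Cry1, Cry2, Nr1d1, Nr1d2, Dbp and Tef. They were chosen by symbol, and all 10 had a row among the 55401 genes of the deposited count table. RNA was sequenced from meningeal lymphatic endothelial cells (LECs) of female mice aged 3 months, of strain C57BL/6 in the labels and C57BL/6J in the study's methods. The 5 naive replicates came from unstressed mice, and the other 5 from mice given sub-chronic variable stress (SCVS), in which foot shock, tail suspension and restraint alternated over 6 days. The cells of both groups were sorted from the dura mater as CD45-CD31+podoplanin+, and every replicate was a pool from 3 to 4 animals. All tissue was digested for 12 min with 45 µM actinomycin D, which blocks transcription. The sources used here give no clock time at which the dura was taken for either group.

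The mammalian clock is a feedback loop of transcription that runs in nearly every cell. CLOCK and ARNTL (also called BMAL1) bind as a pair to E-box sequences and switch on the Per and Cry genes, whose proteins return to the nucleus and block the pair. The nuclear receptors NR1D1 and NR1D2 (REV-ERB alpha and beta) are also switched on by the pair and repress Arntl in turn. DBP and TEF belong to the PAR bZIP family and carry the rhythm to output genes through D-box sequences. Because the limbs of the loop run in different phases, Arntl transcript is high in most tissues at the time of day when Dbp and Nr1d1 are low.

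The sites through which these factors act can be read in the promoters of the members. A window from 250 bases before to 50 bases after an annotated start was taken from RefSeq (GRCm38.p6). It was found for 9 of the 10 members, in 13 windows. Each window was searched on both strands for the E-box CACGTG, the D-box TTATGTAA and the element TAGGTCA bound by NR1D and ROR receptors. In the windows of the members no match overlapped another. The windows of Arntl, Per3 and Cry1 are shown because they hold the 3 kinds of site. They are printed 5′ to 3′ on the strand of the gene, with the matched letters in capitals.
Arntl, chr7:113207261-113207560, plus strand, a ROR element: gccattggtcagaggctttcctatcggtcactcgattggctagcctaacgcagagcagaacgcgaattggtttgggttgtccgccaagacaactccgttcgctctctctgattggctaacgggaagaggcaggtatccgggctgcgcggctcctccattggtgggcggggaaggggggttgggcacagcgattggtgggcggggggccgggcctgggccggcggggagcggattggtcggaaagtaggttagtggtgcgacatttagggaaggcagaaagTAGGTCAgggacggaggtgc
Per3, chr4:151044616-151044915, minus strand, a pair of D-boxes: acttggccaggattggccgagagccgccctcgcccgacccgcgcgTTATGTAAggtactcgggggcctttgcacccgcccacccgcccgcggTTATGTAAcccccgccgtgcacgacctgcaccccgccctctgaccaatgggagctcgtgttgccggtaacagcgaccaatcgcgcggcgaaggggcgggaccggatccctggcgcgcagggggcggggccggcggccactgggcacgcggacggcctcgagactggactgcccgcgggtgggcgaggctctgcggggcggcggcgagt
Cry1, chr10:85185005-85185304, minus strand, an E-box: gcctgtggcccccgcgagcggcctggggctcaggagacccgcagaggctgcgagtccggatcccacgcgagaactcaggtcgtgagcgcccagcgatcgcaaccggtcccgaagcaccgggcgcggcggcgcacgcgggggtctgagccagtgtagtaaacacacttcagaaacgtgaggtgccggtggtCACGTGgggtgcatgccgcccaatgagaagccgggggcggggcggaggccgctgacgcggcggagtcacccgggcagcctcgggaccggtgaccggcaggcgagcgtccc

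The ROR element of Arntl began at base 31, counting the start as base 1. The D-boxes of Per3 began 205 and 158 bases before its start, and the E-box of Cry1 began 60 bases before its start. Both windows of Tef also held an E-box, beginning 127 and 138 bases before the start. No match was found in the windows of Clock, Cry2, Nr1d1, Nr1d2 and Dbp. Among all 32851 windows of the annotation, 7.15% held the E-box, 0.938% the D-box and 2.61% the ROR element. A match is a description of the sequence and not a measured binding site.

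The total count of a replicate was 9984743 to 14094155. Levels are given in CPM, counts per 1000000 of that total, and a floor of 3 counts lay between 0.213 and 0.300 CPM. The replicates differed in their makeup. Naive replicate 5 had 21.5 CPM of Pecam1 (CD31, used in the sort) and 0.15 CPM of the endothelial junction gene Cldn5, and naive replicate 1 had no count of Prox1 or Pdpn, which define lymphatic endothelium, but 966 CPM of Pecam1 and 971 CPM of Cldn5. The summed level of 8 lymphatic markers was 206 to 3679 CPM in naive and 1027 to 3797 CPM in SCVS replicates. This list includes Pecam1, which the study also used to gate blood endothelial cells. Pecam1 made up 966 of the 1027 CPM in naive replicate 1 and 588 of the 1027 CPM in SCVS replicate 5. Without it the lymphatic sums would be lower. The sum of 8 blood endothelial markers was 313 to 10270 CPM in naive and 5219 to 9324 CPM in SCVS replicates. The blood endothelial sum was above the lymphatic sum in all 10 replicates, so the markers do not bear out a pure lymphatic population, and the cells are called LECs here only by their sort. The sums of 5 mural markers were 765 to 7469 CPM in naive and 409 to 5906 CPM in SCVS, and those of 8 myeloid markers 0.48 to 530 and 148 to 3592 CPM. Those of 5 fibroblast, 3 erythroid and 6 neuronal and glial markers also overlapped between the groups. Of the 43 markers tested, 5 (11.6%) had an unadjusted p under 0.05 in edgeR, against 3.10% of all genes. Mean CPM in naive and SCVS was 0.048 and 10.2 for Ptprc (CD45), 15.4 and 530 for Hba-a1, 0.61 and 72.8 for Hba-a2, 131 and 20.2 for Col1a2, and 423 and 27.2 for Acta2. Most of these means rested on few replicates. SCVS replicate 5 had 2490 CPM of Hba-a1 and 360 CPM of Hba-a2, against at most 124 and 1.56 CPM in the other SCVS replicates. Ptprc was at 40.5 CPM in SCVS replicate 5 and at 0 in SCVS replicates 2 and 3. Acta2 was at 1530 and 506 CPM in naive replicates 1 and 2, and at most 47.9 CPM in the other naive replicates. The part of such cells in the levels of the clock genes was not tested. In such bulk samples, fewer cells of a type and less RNA per cell cannot be told apart.

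All 10 clock genes were detected in these cells, at levels that spread widely between replicates of the same group. Per kilobase of exon (exon lengths of GENCODE M1), the mean level over the 10 replicates was highest for Nr1d1, at 28.4 CPM per kb, and next for Nr1d2, at 17.1. Arntl (14.2 CPM per kb), Dbp (13.2) and Clock (11.2) followed. The cryptochromes Cry1 (6.22 CPM per kb) and Cry2 (5.61), then Tef (4.42) and Per3 (3.20), lay lower, and Per2 (1.16) was the lowest. The ranges over replicates of any neighbours in this order overlapped. The coefficient of variation of CPM over the 10 replicates was 50.7% to 133% among the members, with a median of 79.0%, against a median of 88.0% among the 9104 tested genes with a mean CPM in the same range. Clock, Arntl, Cry2, Nr1d1, Dbp and Tef had more than 3 counts in all replicates, which held for 38.1% of the tested genes. Each of the other 4 members had at most 3 counts in some replicate and at least 100 in another, which was also true of 55.6% of the tested genes.

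**Figure D1:**
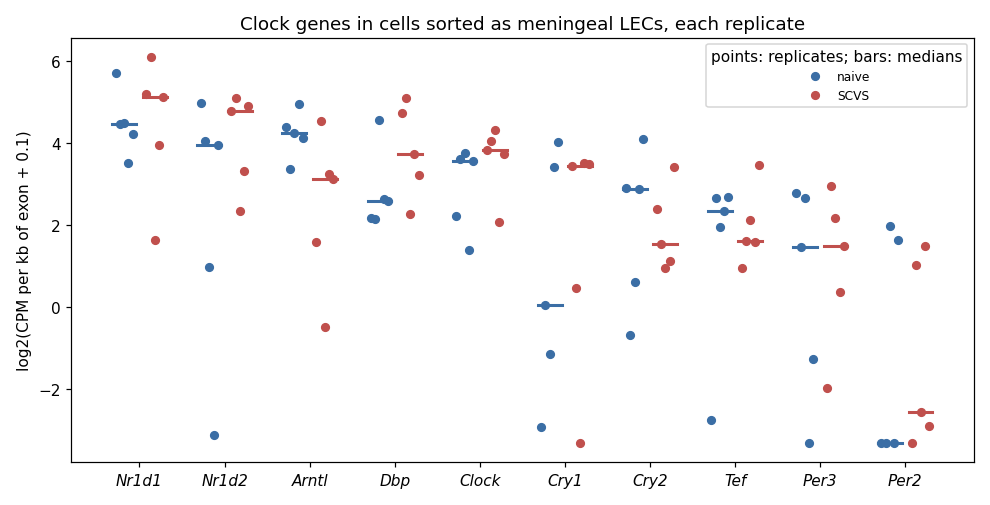
Level of each clock gene in the 5 naive (blue) and 5 SCVS (red) replicates, as log2 of CPM per kb of exon plus 0.1, with group medians as bars and genes ordered by mean level. The groups overlap for all 10 genes, and Per2, Per3, Cry1, Nr1d2 and Tef each have replicates near the bottom of the scale.

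The comparison of SCVS with naive replicates addressed whether stress changes the transcripts of meningeal LECs. None of the 10 clock genes passed the threshold of 0.1 on the adjusted p, with edgeR's quasi-likelihood test and Benjamini-Hochberg adjustment over 14815 genes. The background was 0.0% of genes called. DESeq2 called none of the members either, against 0.769% (114) of all genes. None of the members had an unadjusted p under 0.05 either, against 3.10% (460) of all genes, and the groups overlapped in CPM for all 10, whereas they did not for 0.628% of genes (0.445% higher and 0.182% lower in SCVS). In the exact permutation test of CPM none of the members had p under 0.05, against 3.79% of genes. The fitted log2 fold change was positive for 6 members and negative for 4, with a median of 0.15. Over all tested genes it was positive for 7134 and negative for 7674, with a median of -0.03. The narrowest 95% interval among the members, that of Clock, ran from -0.63 to 1.75. At this spread between replicates, the data did not settle where in that range the change of Clock lay.

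**Figure D2:**
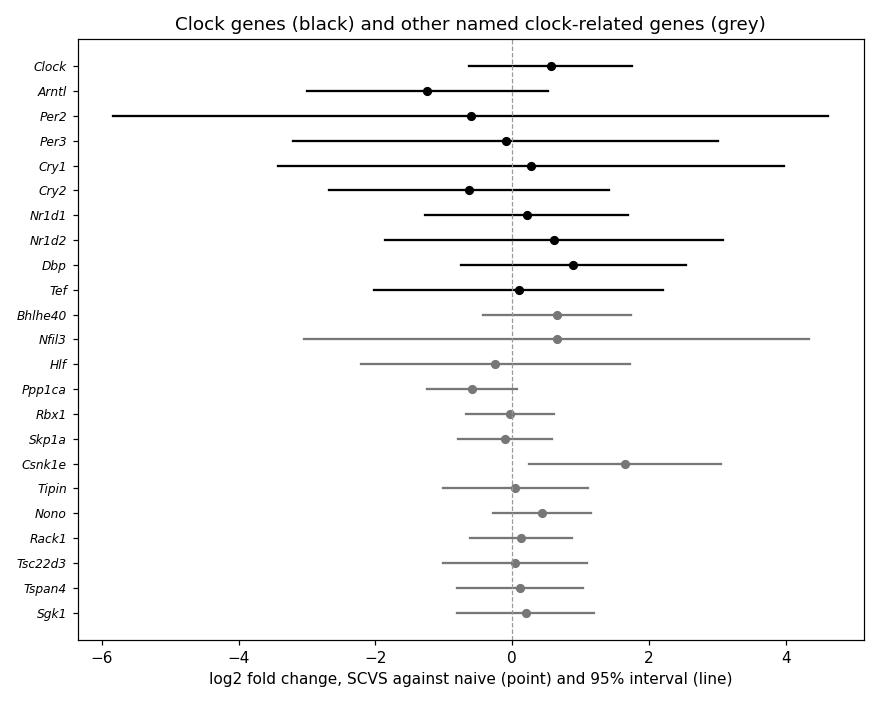
Fitted log2 fold change of SCVS against naive replicates (points) with 95% intervals (lines) for the 10 clock genes in black and 13 other clock-related genes in grey. The intervals of all 10 clock genes include 0, and among the grey genes that of Csnk1e (0.24 to 3.05) does not.

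Gene coordinates are given on GRCm38.p6. The activators Clock and Arntl had fitted changes of opposite sign. Clock (ENSMUSG00000029238, chr5:76209868-76305603), a DNA-binding subunit of the activating pair, had 40.3, 107, 119, 22.3 and 103 CPM in naive replicates 1 to 5 and 124, 146, 174, 36.4 and 116 CPM in SCVS replicates 1 to 5. Naive replicates 1 and 4 and SCVS replicate 4 were low, and the other 7 replicates lay above 100 CPM. The means were 78.2 ± 43.7 CPM in naive and 119 ± 51.7 CPM in SCVS (SD, n = 5 each), and the log2 fold change was 0.56 (SE 0.55, adjusted p = 1 by edgeR, exact permutation p = 0.175). When single replicates were left out, the exact permutation p of Clock ran from 0.0476, without SCVS replicate 4, to 0.365, without naive replicate 4 or SCVS replicate 3. Only the removal of SCVS replicate 4 brought it under 0.05.

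Arntl, the obligate partner of CLOCK (ENSMUSG00000055116, chr7:113178471-113314126), had 60.8, 29.7, 55.1, 89.9 and 50.5 CPM in naive replicates and 8.51, 67.4, 1.79, 27.5 and 25 CPM in SCVS replicates. In SCVS, 4 of 5 replicates lay below every naive replicate, and SCVS replicate 2 lay above all naive replicates but replicate 4. The means were 57.2 ± 21.7 and 26.0 ± 25.5 CPM (SD, n = 5 each), and the log2 fold change was -1.24 (SE 0.81, 95% interval -3.01 to 0.53, adjusted p = 1 by edgeR, exact permutation p = 0.0873). The value depended on single libraries. Leaving out SCVS replicate 2, the only SCVS replicate within the naive range, necessarily removed the overlap between the groups. The log2 fold change was then -1.85, with an exact permutation p of 0.0159. Since this replicate stands out by its Arntl value, neither result is support for a difference. The share of all genes that separate without it is not given here. The exact permutation p was 0.0476 without naive replicate 2, but 0.167 without naive replicate 4 and 0.151 without SCVS replicate 3. Without SCVS replicate 3 the log2 fold change was -0.93. The lowest adjusted p of Arntl over the alternatives was 0.518, in edgeR without a low-count filter. Without naive replicate 1, which lacked Prox1 and Pdpn, and naive replicate 5, which was low in Pecam1 and Cldn5, its exact permutation p was 0.143.

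Of the Per genes, which encode the inhibitors that set the length of the cycle, Per2 (ENSMUSG00000055866, chr1:91415977-91459351) was read in few replicates. It had 0 counts in naive replicates 1, 2 and 4 and in SCVS replicate 1, but 311 and 233 counts (22.3 and 17.5 CPM) in naive replicates 3 and 5. In SCVS replicates 2 to 5 it had 137, 5, 210 and 2 counts. More than 3 counts were thus found in 2 naive and 3 SCVS replicates, and the replicates of either group split into low and high ones. The log2 fold change was -0.61 with an SE of 2.39, and its interval, from -5.83 to 4.61, was the widest of the 10 members (adjusted p = 1 by edgeR, exact permutation p = 0.683).

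Per3 (ENSMUSG00000028957, chr4:150997018-151044707) had 65.2, 25.7, 59.2, 0 and 3.00 CPM in naive replicates and 1.49, 73.4, 42.3, 11.4 and 25.8 CPM in SCVS replicates. High and low replicates occurred in both groups, and the means of 30.6 ± 30.6 and 30.9 ± 28.3 CPM (SD, n = 5 each) were nearly equal. The log2 fold change was -0.10 (SE 1.42, exact permutation p = 0.992), and its sign changed when single replicates were left out.

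Cry1 and Cry2 encode the cryptochromes, the repressors that bind the CLOCK and ARNTL pair most directly. Cry1 (ENSMUSG00000020038, chr10:85131700-85185054) had 0.096, 2.82, 1.07, 31.6 and 48.8 CPM in naive and 32.1, 3.86, 0, 33.9 and 33.3 CPM in SCVS replicates. It was thus either under 4 CPM or over 31 CPM, with 2 high replicates among the naive and 3 among the SCVS. The log2 fold change was 0.28 (SE 1.69, exact permutation p = 0.754). Cry2 (ENSMUSG00000068742, chr2:92403646-92434085) had 46.7, 3.29, 9.02, 45.9 and 108 CPM in naive and 32.6, 17.7, 11.6, 13.1 and 66.7 CPM in SCVS replicates, with naive replicate 5 the highest. Its log2 fold change was -0.63 (SE 0.93, exact permutation p = 0.556), and without naive replicate 5 it was 0.09. Cry2 shares 295 exonic bases with D930015M05Rik on the opposite strand, which had 0 to 23 counts.

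The NR1D receptors had the highest levels per length, and both had higher means in SCVS replicates, with differences smaller than the spread. Nr1d1 (ENSMUSG00000020889, chr11:98767932-98775377) had 162, 68.8, 69.6, 35.1 and 58.2 CPM in naive and 114, 213, 9.33, 48.0 and 109 CPM in SCVS replicates. The lowest and the highest of the 10 values were both in SCVS. The means were 78.7 ± 48.6 and 98.7 ± 77.3 CPM (SD, n = 5 each), and the log2 fold change was 0.21 (SE 0.68, exact permutation p = 0.635). Without SCVS replicate 2 it was -0.20. It overlaps Thra on the opposite strand, with 263 shared exonic bases in GENCODE M1 and 96 to 902 counts on Thra, and the sources used here do not state whether strand was used in counting.

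Nr1d2 (ENSMUSG00000021775, chr14:18204056-18239106) had 157, 82.8, 9.30, 0.074 and 77.0 CPM in naive and 138, 171, 24.7, 49.0 and 149 CPM in SCVS replicates. Naive replicate 4 had a single count. In 3 of 5 SCVS replicates the level was above 130 CPM, as it was in 1 of 5 naive replicates. The log2 fold change was 0.61 (SE 1.13, 95% interval -1.86 to 3.07, adjusted p = 1 by edgeR, exact permutation p = 0.349).

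Dbp and Tef are the outputs of the loop among the members. Dbp (ENSMUSG00000059824, chr7:45705100-45710203), a direct E-box target of the activating pair in many tissues, had 13.0, 12.8, 68.9, 18.0 and 17.3 CPM in naive and 78.0, 101, 13.9, 39.1 and 26.9 CPM in SCVS replicates. In naive cells 4 of 5 values lay between 12.8 and 18.0 CPM, and 4 of 5 SCVS values lay above that range. The means were 26.0 ± 24.1 and 51.8 ± 36.6 CPM (SD, n = 5 each), and the log2 fold change of 0.90 (SE 0.75, 95% interval -0.76 to 2.55) was the highest of the members (adjusted p = 1 by edgeR, exact permutation p = 0.191). Without naive replicate 3, the single high naive value, it was 1.68, with an unadjusted p of 0.0480 and an adjusted p of 1 by edgeR. The exact permutation p was then 0.0794. Without SCVS replicate 2, the highest SCVS value, the log2 fold change was 0.57, with an exact permutation p of 0.460. Dbp shares 491 exonic bases with Sphk2 on the opposite strand in GENCODE M1, and Sphk2 had 0 to 597 counts. Tef (ENSMUSG00000022389, chr15:81802673-81826863) had 0.38, 48.8, 29.4, 39.3 and 50.0 CPM in naive and 14.3, 23.2, 33.3, 22.8 and 86.1 CPM in SCVS replicates. The means were 33.6 ± 20.3 and 35.9 ± 28.9 CPM (SD, n = 5 each), with a log2 fold change of 0.09 (SE 0.97, exact permutation p = 0.897) that changed sign when SCVS replicate 5 was left out. Tef shares 193 exonic bases with Gm17597 on the opposite strand.

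Correlations between members were taken across the replicates of both groups together, and not within a group. Over the 45 pairs of members the Spearman correlation of CPM across the 10 replicates had a median of 0.13, with 28 pairs above 0 and 16 below. These correlations share their libraries and depth, and are given as descriptions. The highest was that of Nr1d1 with Nr1d2, at 0.84 (Pearson r of log2(CPM + 1) 0.57). Naive replicate 1 and SCVS replicates 1, 2 and 5 were the 4 highest for both genes. Only 20 of the other 14814 tested genes (0.135%) had a higher Spearman correlation with Nr1d1 than Nr1d2 did. The other related genes were less alike. The correlation was 0.53 for Cry1 with Cry2, which 8.49% of genes exceeded with Cry1, and 0.26 for Per2 with Per3, which 22.2% exceeded with Per2. Dbp with Tef gave -0.30, and Clock with Arntl gave -0.46. For the latter, 91.0% of genes had a higher correlation with Clock than Arntl did. The lowest value of the 45 was that of Per3 with Cry1, at -0.60 (Pearson r -0.77). The genes most like Clock, the member with the highest mean CPM, were Ndufs5-ps and Dld (Spearman 0.92 each over 10 replicates) and Clcn6 (0.90).

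**Figure D3:**
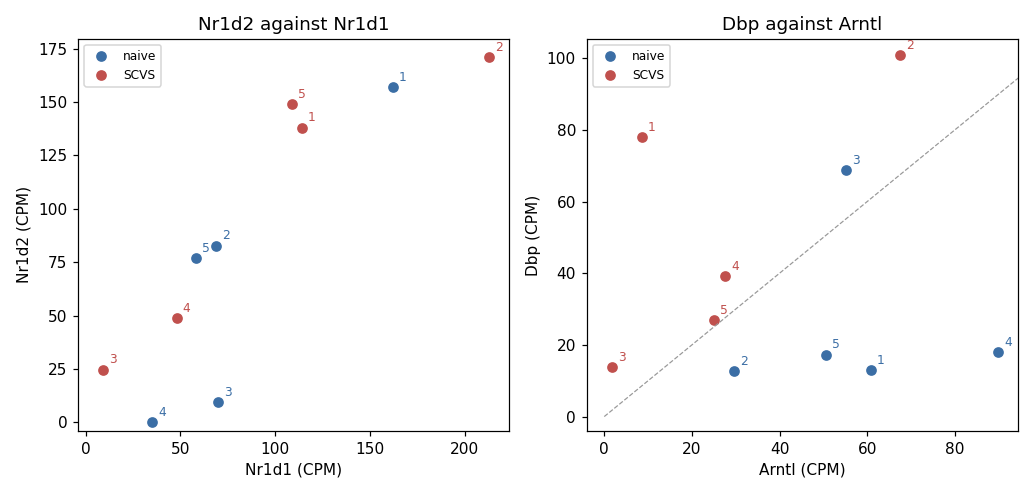
CPM of Nr1d2 against Nr1d1 (left) and of Dbp against Arntl (right) in each naive (blue) and SCVS (red) replicate, numbered as in the labels, with the line of equal CPM dashed in the right panel. Nr1d1 and Nr1d2 share their 4 highest replicates, and all 5 SCVS replicates but only naive replicate 3 lie above the line for Dbp.

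SCVS replicate 2 held the highest level of Nr1d1, Nr1d2, Dbp and Per3 among the 10 replicates, and SCVS replicate 3 the lowest of Arntl, Nr1d1 and Cry1 and the highest of Clock. Naive replicate 4 was the highest in Arntl and the lowest in Clock, Nr1d2 and Per3.

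Dbp and Arntl peak in opposite phases of the cycle in most tissues, and the ratio of their CPM was taken within each replicate. Dbp had 0.213, 0.433, 1.25, 0.200 and 0.342 times the CPM of Arntl in naive replicates 1 to 5 and 9.17, 1.5, 7.77, 1.42 and 1.08 times in SCVS replicates 1 to 5. All 5 SCVS replicates had more Dbp than Arntl, as did 1 naive replicate. On the scale of log2 of the ratio of CPM + 1, the means were -1.35 ± 1.04 and 1.33 ± 1.32 (SD, n = 5 each), and the SCVS value was above the naive value in 24 of 25 pairs. This ratio was chosen after the levels had been seen and is given without a test. Dbp had the highest and Arntl the lowest log2 fold change of the members (0.90 and -1.24). The count of pairs is therefore not support for a difference. The other 8 members also had higher mean ratios to Arntl in SCVS, with Nr1d1 above in 23 of 25 pairs. All these ratios share Arntl as denominator, with a mean of 57.2 CPM in naive and 26.0 CPM in SCVS. They are therefore not separate results about the other members. For none of the members did the groups separate fully, while they did for 3.25% of all genes (481), all of them higher in SCVS. The share of all genes at 23 or 24 of 25 pairs is not given here. A difference in the ratio to Arntl as large as that of Dbp was found for 17.4% of genes.

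The loop has further members, modifiers and outputs, of which 67 genes in 4 lists were in the table and 65 passed the low-count filter. None was called, and 1, higher in SCVS, had an unadjusted p under 0.05, against 1.93% of all genes in that direction. The median log2 fold change was 0.19 over the 65 genes, with 40 positive and 25 negative. Over all tested genes it was -0.03, with 7134 positive and 7674 negative.

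Among the 11 other transcription factors of the loop, 6 had a positive and 5 a negative log2 fold change, with a median of 0.19. The 3 highest per length were Bhlhe40 (45.9 CPM per kb), which represses E-box genes, Nfil3 (13.1), which competes with DBP for the D-box, and Hlf (5.33), the other PAR bZIP factor. Bhlhe40 had 115 ± 72.8 CPM in naive and 186 ± 49.4 CPM in SCVS (SD, n = 5 each), with a log2 fold change of 0.65 (SE 0.49, exact permutation p = 0.135). Nfil3 had a log2 fold change of 0.65 (SE 1.69) and Hlf of -0.25 (SE 0.90). Per1, the Per gene that is not among the 10 members, was looked up outside the rule for named genes. It was low, at 1.53 CPM per kb, with 0 to 9.88 CPM in naive and 1.30 to 37.9 CPM in SCVS replicates (log2 fold change 1.51, SE 1.62, exact permutation p = 0.214).

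Kinases, phosphatases and ubiquitin ligases set how long PER and CRY proteins last. Of the 19 tested, 11 had a positive and 8 a negative log2 fold change, with a median of 0.35. Csnk1e (ENSMUSG00000022433, chr15:79417852-79455579) encodes casein kinase 1 epsilon, which phosphorylates PER proteins and marks them for breakdown. It had 4.22, 22.9, 17.5, 19.9 and 19.7 CPM in naive and 83.6, 51.3, 37.1, 36.2 and 62.1 CPM in SCVS replicates. Every SCVS replicate lay above every naive replicate, which was the case for 0.445% of all tested genes. The means were 16.8 ± 7.32 and 54.1 ± 19.7 CPM (SD, n = 5 each), and the exact permutation p of 0.00794 is the smallest that 5 against 5 can give. The log2 fold change was 1.65 (SE 0.64, 95% interval 0.24 to 3.05, unadjusted p = 0.0257), and the gene did not pass after adjustment over all genes (adjusted p = 1 by edgeR and by the exact permutation test). Without naive replicates 1 and 5 the log2 fold change was 1.41, the groups still did not overlap, and the exact permutation p was 0.0357. The unadjusted p in edgeR was 0.0742 without SCVS replicate 1 and 0.0561 without SCVS replicate 5. Csnk1e shares 267 exonic bases with Gm16059 on the opposite strand in GENCODE M1, which had 0 to 200 counts.

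The 3 genes of this list with the highest level per length were Ppp1ca (354 CPM per kb), a catalytic subunit of protein phosphatase 1, and Rbx1 (205) and Skp1a (187), parts of the ubiquitin ligases that carry the F-box proteins for CRY and PER. Ppp1ca had 600 ± 122 CPM in naive and 414 ± 140 CPM in SCVS (SD, n = 5 each), with a log2 fold change of -0.59 (SE 0.30, adjusted p = 1 by edgeR, exact permutation p = 0.0238), and it shares 222 exonic bases with Rad9 on the opposite strand. Rbx1 and Skp1a had log2 fold changes of -0.03 (SE 0.29) and -0.10 (SE 0.31).

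The cofactors of the clock complexes numbered 20, of which 14 had a positive and 6 a negative log2 fold change, with a median of 0.22. The highest per length were Tipin (76.4 CPM per kb), the partner of TIMELESS, Nono (44.8), an RNA-binding partner of PER, and Rack1 (42.3), which binds ARNTL. Their log2 fold changes were 0.05 (SE 0.48), 0.43 (SE 0.33) and 0.13 (SE 0.34). In the exact permutation test 4 of the 65 genes had p under 0.05 before adjustment, against 3.79% of all genes, and none after it. Beside Csnk1e and Ppp1ca they were Sirt1 and Ep300, named here after their values were seen. Sirt1, a deacetylase that acts on ARNTL and PER2, had 1.43 to 10.9 CPM in naive and 7.41 to 36.2 CPM in SCVS replicates (log2 fold change 2.19, SE 1.07, exact permutation p = 0.0159). Ep300, a histone acetyltransferase recruited by the activating pair, had 33.1 ± 15.4 CPM in naive and 74.2 ± 29.9 CPM in SCVS (SD, n = 5 each, log2 fold change 1.13, SE 0.58, exact permutation p = 0.0397).

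**Figure D4:**
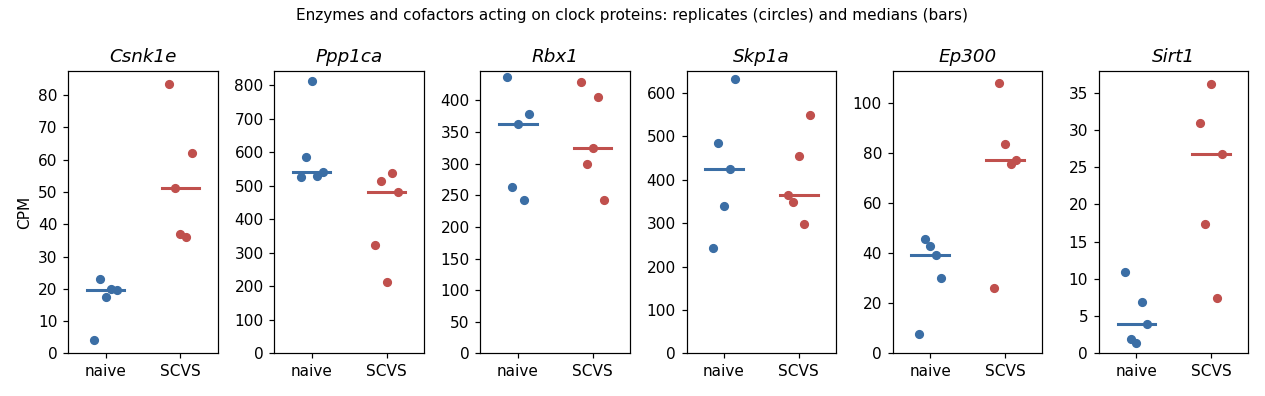
CPM of enzymes and cofactors that act on clock proteins in each replicate (circles), with group medians as bars and a scale from 0 for each gene. The SCVS values of Csnk1e (36.2 to 83.6 CPM) lie above all naive values (4.22 to 22.9 CPM), and the groups of the other 5 genes overlap.

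Of the 15 tested output genes that are rhythmic in many tissues, 9 had a positive and 6 a negative log2 fold change, with a median of 0.11, and none was called. The highest per length were Tsc22d3 (120 CPM per kb), Tspan4 (96.9) and Sgk1 (84.3). Tsc22d3 and Sgk1 are also induced by glucocorticoids. Tsc22d3 had 505 ± 308 CPM in naive and 539 ± 200 CPM in SCVS (SD, n = 5 each), with a log2 fold change of 0.04 (SE 0.48, exact permutation p = 0.849). Sgk1 had 380 ± 232 and 447 ± 178 CPM (SD, n = 5 each), with a log2 fold change of 0.20 (SE 0.46, exact permutation p = 0.603). Tspan4 had a log2 fold change of 0.11 (SE 0.42).

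The genes of the whole table that carry the same promoter letters as the members were also near the background. Of the 10612 tested genes with a window, the 1217 with an E-box had a median log2 fold change of -0.05, the 72 with a D-box 0.09 and the 237 with a ROR element 0.03, beside -0.03 over all of them. An unadjusted p under 0.05 was found for 2.71%, 1.39% and 2.53% of these genes, against 3.05% of all genes with a window.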

How the data were processed

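The authors trimmed the reads, aligned them and deposited raw counts per gene for each replicate, without normalization. The submitters' processing notes name cutadapt 1.9.1, HISAT2 2.0.1, HTSeq 0.6.1, DESeq2 and GRCm38, whereas the study's methods name mm9. Of the 55401 identifiers 58.8% were in the mm9 annotation GENCODE M1, which gave exon lengths and overlaps, and gene coordinates are those of RefSeq GRCm38.p6 matched by symbol. Annotation and use of strand are not given in the sources used here.

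The low-count filter kept 14815 genes (above 5 counts in 3 or more of the 10 replicates). They were tested with edgeR 4.0.16 (quasi-likelihood test, TMM, R 4.3.3), with a threshold of 0.1 on the Benjamini-Hochberg adjusted p. The standard error is the log2 fold change divided by the square root of F. The biological coefficient of variation was 1.59. CPM used total counts and their group means were compared by exact permutation, two-sided (252 regroupings, SciPy 1.17.1). Levels per kb divide CPM by exon length. The floor of 3 counts covers counting error only, since amplified reads are not independent molecules. Total counts were 9984743 to 14094155 per replicate.

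Replicates are separate pools of mice. More than 1 cohort was used, and the replicates were not tied to cohorts in the sources used here. The alternatives were DESeq2 1.42.0, limma 3.58.1 with voom, other scalings and filters, a replicate block and leaving out replicates. Of these fits, only the edgeR quasi-likelihood fit and the default DESeq2 fit were run on simulated data. The members and lists were chosen with earlier results of these data known. Named are the 10 members, list genes with p under 0.05 or without overlap, the 3 genes with the highest level per length in each list, and the 3 genes most like the member with the highest CPM. The symbols Gm129, Gnb2l1 and Chrono were not matched in the table.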

Additional observations from a re-analysis of the deposited data

Results flagged for a closer look

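Over 50 groups of 5 replicates, 4 had a highest value that stood apart from the rest by Dixon's criterion (critical value 0.71). For normally distributed values chance flags about 1 in 20 groups, and the distribution of these CPM was not tested. In naive replicates, Nr1d1 reached 162 CPM in replicate 1, Dbp reached 68.9 CPM in replicate 3, and Ppp1ca reached 813 CPM in 1 replicate. In SCVS replicates, Tef reached 86.1 CPM in replicate 5.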

How the results depend on the processing

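None of the 10 clock genes and none of the 65 genes of the other clock lists was called under any alternative, and the lowest adjusted p of a named gene under any alternative was 0.21, for Csnk1e in DESeq2. Over all genes, DESeq2 called 114 and, without its Cook's and independent filtering, 123, edgeR's likelihood ratio test 38 and limma voom 3, where the quasi-likelihood test called 0 (460 at an unadjusted p under 0.05). Without a low-count filter 4941 of 29449 genes had an unadjusted p under 0.05. Stricter filters left out Per2. When each replicate was left out in turn, 0 to 1 members had an exact permutation p under 0.05 and 0 to 1 did not overlap between the groups. The shares of all genes in these settings are not given here, so these counts are not results about the members. Clock, Arntl, Nr1d2 and Dbp kept their sign in every alternative. Without naive replicate 3, Dbp had an unadjusted p under 0.05 in edgeR, as did 436 of 14499 tested genes. Its exact permutation p was then 0.0794.

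The replicate numbers were not used as pairs, since same-numbered replicates are pools of different mice and the correlations of their deviations were -0.02 to 0.15, with only that of number 5 over 0.1. Of the 5 naive replicates, 4 did correlate best with the SCVS replicate of their own number, which is a hint from the data and not from the design. With the replicate block 0 genes were called, 266 had an unadjusted p under 0.05, and the log2 fold changes of Per2 (0.36), Per3 (1.32) and Nr1d1 (-0.02) changed sign. With voom, which moved the median of all genes from -0.03 to 0.09, those of Per2 (2.36), Per3 (2.00), Cry2 (0.26), Hlf (0.021) and Rbx1 (0.072) did, and with total counts those of Per3 (0.017) and Rbx1 (0.018). Without naive replicates 1 and 5, chosen after seeing the data, the sign changed for Per3 (0.037), Cry2 (0.57), Tef (-0.11), Hlf (0.95), Rack1 (-0.16), Rbx1 (0.21), Sgk1 (-0.26), Tsc22d3 (-0.36) and Tspan4 (-0.23). Leaving out single replicates gave log2 fold changes across 0 for Per2 (-1.63 to 0.25), Per3 (-0.61 to 0.41), Cry1 (-0.034 to 1.25), Cry2 (-1.26 to 0.085), Nr1d1 (-0.20 to 0.70), Tef (-0.55 to 0.31), Hlf (-0.87 to 0.40), Rack1 (-0.061 to 0.28), Rbx1 (-0.15 to 0.10), Sgk1 (-0.034 to 0.56), Skp1a (-0.26 to 0.10), Tipin (-0.14 to 0.32), Tsc22d3 (-0.21 to 0.43) and Tspan4 (-0.11 to 0.33). The cause of these changes was not tested.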
